A study of Mus musculus with 6 samples.

Results

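Receptors, Smads and Id genes of the TGF-beta and BMP pathways were followed across the cell types of the mouse retina in oxygen-induced retinopathy. They were 10 of the 20822 genes in the deposited table of single-cell counts and were taken by name: the receptors Eng, Acvrl1, Bmpr2 and Tgfbr2, the signalling proteins Smad1, Smad6 and Smad7, and the target genes Id1, Id2 and Id3. All 10 were found in the table.

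In this pathway, ligands of the TGF-beta and BMP families bind a type II receptor (Tgfbr2, Bmpr2), which activates a type I receptor such as Acvrl1 (ALK1), with endoglin (Eng) as a co-receptor on endothelial cells (ECs). The type I receptor phosphorylates receptor Smads (Smad1 on the BMP side), which enter the nucleus with Smad4 and switch on targets that include the Id genes, whose products hold back basic helix-loop-helix transcription factors. Smad6 and Smad7 are inhibitory Smads that are induced by the pathway and dampen it, and ALK1 signalling in retinal ECs is known for restraining sprouting.

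The study compared 3 replicates labelled eNOS+/+ (C57BL/6J mice) with 3 labelled eNOS-/- (mice lacking endothelial nitric oxide synthase, encoded by Nos3), all at postnatal day 14 after oxygen-induced retinopathy, a model in which newborn mice are exposed to high oxygen and then returned to room air. Each replicate pooled 3 to 5 retinas, was enriched for CD31-positive cells with antibody beads and was sequenced by Drop-seq, which captures the 3' ends of transcripts and counts unique molecular identifiers (UMIs). All mice went through the retinopathy, so no sample shows the untreated retina, and the knockout lacks the enzyme in every cell and at every age. The authors' annotation gave 10 cell types, with ECs split into Tip, Structural and Proliferative ECs. The UMIs of a gene were summed over the cells of a type in a replicate and divided by all UMIs of that sum to give counts per 1000000 UMIs (CPM), and sums of fewer than 10 cells were left out. Because the counts come from 3' ends, the levels of different genes were not set against each other.

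The table held 8944 cells and 10361314 UMIs, with 617246 to 3350799 UMIs per replicate and 488367 to 2425603 in its ECs. The EC list of 10 markers summed to 5887 to 9044 CPM in the EC subtypes, and the rod list of 6 genes to 26574 to 52895 CPM in Rods. The neuroglia list of 7 genes summed to 21682 to 24624 CPM in Neuroglia and to 19399 to 24022 in Immune cells. Of its genes, Apoe averaged 20342 CPM in Immune cells and 5877 in Neuroglia, and Rlbp1 109.8 and 3634. Nos3 lay at 19.4, 36.6 and 23.6 CPM in the ECs of the eNOS+/+ replicates and at 21.2, 16.1 and 32.8 in those labelled eNOS-/-. It did not separate the genotypes (log2 fold change -0.29, standard error 0.35, adjusted p = 0.969 by edgeR, adjusted after Benjamini-Hochberg), and a 3' tag that lies outside the deleted part would not check the labels. All 613 cells of eNOS+/+ replicate 2 carried the library name of another library in a further column of the annotation. Libraries shared at most 1 barcode, and 31.4% of barcodes were 1 base from a deeper barcode of their own library. Structural ECs of eNOS-/- replicate 3 carried 3868 CPM of the mural marker list against 32.3 to 173 CPM in the other replicates, and the 56 rods of eNOS+/+ replicate 3 carried 3762 CPM of the EC list against 701 to 1464 CPM in the other rod sums.

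The members fell into a few patterns over the cell types. Of the 10 genes, 6 had their highest mean in an EC subtype: Eng, Bmpr2, Tgfbr2 and Smad1 in Tip ECs, and Acvrl1 and Smad7 in Structural ECs. The 3 Id genes had theirs in Neuroglia, the retinal glia marked by Glul and Rlbp1. Smad6 was the remaining gene, with its highest mean in Optc+ cells, a population named by the authors for opticin, on 6 UMIs only. The cell types were made from the expression of the same cells, so these differences between types are described and were not tested.

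**Figure D1:**
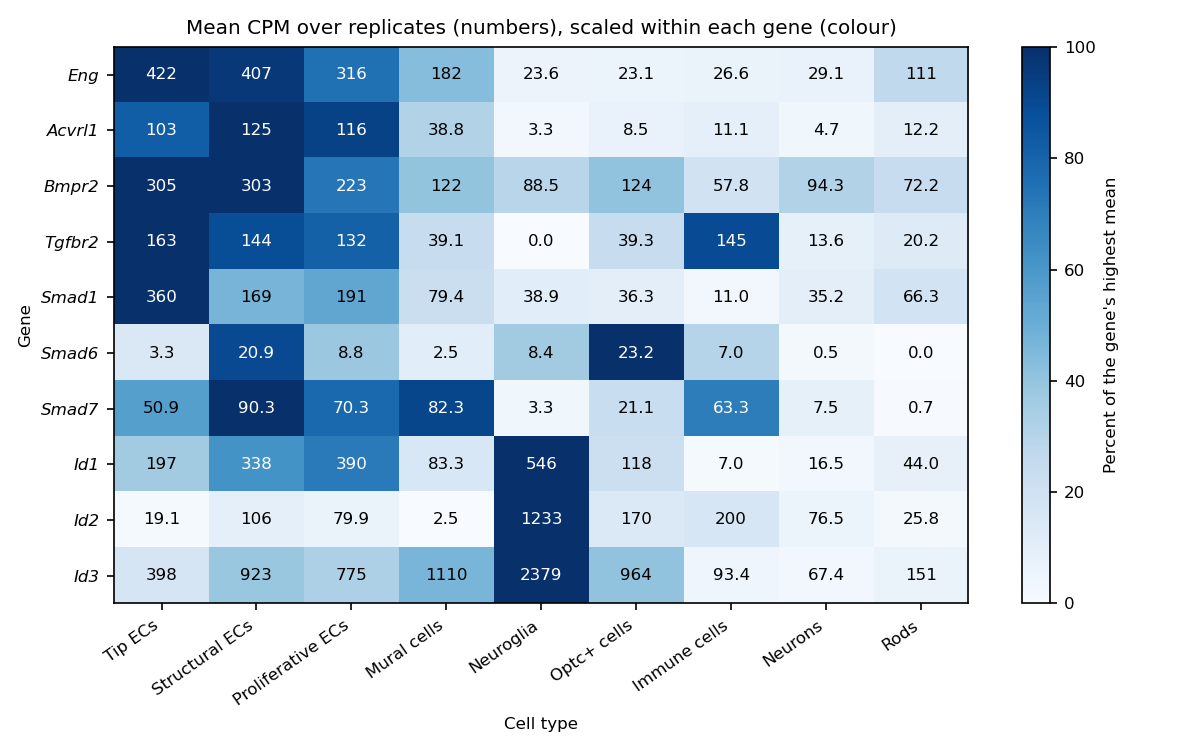
Heat map of the 10 members (rows) over 9 cell types (columns). The number in each field is the mean CPM over replicates and the colour is that mean as a percent of the gene's own highest mean, so colours compare types within a gene and not genes with each other. Each receptor and Smad1 have their darkest field in an EC column, and Id1, Id2 and Id3 are darkest in Neuroglia, at 546, 1233 and 2379 CPM. For Tgfbr2, Immune cells (145 CPM) rank between Tip ECs (163 CPM) and Structural ECs (144 CPM).

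Eng, the endoglin gene (chromosome 2 of GRCm38, 32646595 to 32682669), was high in all EC subtypes, with its lowest mean among them in Proliferative ECs. Its mean was 422 CPM ± 54.7 (SD, n = 6) in Tip ECs, 407 ± 67.3 (SD, n = 6) in Structural ECs and 316 ± 80.7 (SD, n = 6) in Proliferative ECs, values whose neighbours did not differ beyond their summed SDs. Within replicates, Proliferative ECs were lower than Tip ECs in 5 of 6, with a ratio of 0.75 in the means. Structural ECs were higher than Proliferative ECs in 5 of 6. By replicate, Tip ECs held 318, 449 and 463 CPM in eNOS+/+ and 455, 405 and 442 in eNOS-/-, so only eNOS+/+ replicate 1 lay below 400. Mural cells, the pericytes and smooth muscle cells of vessels, held 347 and 139 CPM in eNOS+/+ replicates 2 and 3 and 158, 172 and 93.3 in eNOS-/-. All ECs together were higher than mural cells in 5 of 5 replicates, by 2.20 times in their means. Mural sums also held 1078 to 2367 CPM of the EC list, with all 10 EC markers found, and the part of these in the mural Eng was not tested. In Neurons, Immune cells, Neuroglia and Optc+ cells, means were 23.1 to 29.1 CPM. The mean of 111 CPM in Rods came mostly from eNOS+/+ replicate 3, at 429 CPM, the rod sum with the high EC marker level, while the other rod sums were at 0, 38.8, 88.3 and 0 CPM.

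Acvrl1, the ALK1 receptor gene (chromosome 15, 101128522 to 101145336), followed ECs as a whole. It averaged 125 CPM ± 29.5 (SD, n = 6) in Structural, 116 ± 25.9 (SD, n = 6) in Proliferative and 103 ± 17.5 (SD, n = 6) in Tip ECs. The step from Tip ECs down to mural cells, at 38.8 ± 32.6 CPM (SD, n = 5), was wider than the summed SDs, and no other step in its order was. All ECs were higher than mural cells in 5 of 5 replicates, by 2.92 times. Its means in the other 5 types with more than 1 sum were 3.33 to 12.2 CPM.

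Bmpr2 (chromosome 1, 59763400 to 59879014), the type II receptor for BMPs, was highest in ECs and present at lower counts elsewhere. It stood at 305 CPM ± 90.2 (SD, n = 6) in Tip, 303 ± 128 (SD, n = 6) in Structural and 223 ± 67.0 (SD, n = 6) in Proliferative ECs, and at 57.8 to 124 CPM in the other 6 types with more than 1 sum. Rods were among these at 72.2 CPM, and Immune cells were lower than rods. Whether the rod UMIs of Bmpr2 were free RNA was not tested. The spread of Bmpr2 in Tip and Structural ECs followed the replicate more than the subtype. Tip ECs ran 461, 288 and 219 CPM in eNOS+/+ and 349, 289 and 224 in eNOS-/-, and Structural ECs 502, 263 and 190.2 against 369, 342 and 153. Replicate 1 was the highest and replicate 3 the lowest of each genotype in both subtypes. Same-numbered replicates of the genotypes are separate libraries and were not taken as pairs.

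Tgfbr2 (chromosome 9, 116084293 to 116175360), the type II receptor for TGF-beta, was close to level in ECs. Its means were 163 CPM ± 35.5 (SD, n = 6) in Tip, 144 ± 29.6 (SD, n = 6) in Structural and 132 ± 35.1 (SD, n = 6) in Proliferative ECs. The mean of 145 CPM in Immune cells rested on eNOS+/+ replicate 1, with 487 CPM, whereas the other 4 immune sums were at 41.5, 68.9, 63.7 and 65.6 CPM. In mural cells it averaged 39.1 ± 40.1 CPM (SD, n = 5), and all ECs were higher than mural cells in 5 of 5 replicates. Neuroglia gave 0 UMIs of 136364, which allows a level of up to 22 CPM by counting error alone.

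Smad1 (chromosome 8, 79338395 to 79399518), the Smad that BMP receptors phosphorylate, was the member that most clearly favoured Tip ECs. Tip ECs held 327, 369 and 351 CPM in eNOS+/+ and 325, 344 and 442 in eNOS-/-. Structural ECs held 175, 166 and 152 CPM against 168, 168 and 183, and Proliferative ECs 217, 171 and 233 against 177, 106 and 243. No value of Structural or Proliferative ECs reached the lowest value of Tip ECs, and the genotypes interleaved in each subtype. Smad1 was higher in Tip than in Structural ECs in 6 of 6 replicates, where the ratio of Structural to Tip was 0.469 in the means and 0.414 to 0.534 by replicate. Of the 9483 genes tested in all ECs, 6.47% were higher in Tip than in Structural ECs in 6 of 6 replicates. It was also higher in Tip than in Proliferative ECs in 6 of 6, a pattern held by 8.40% of genes. The EC marker list moved the same way, being lower in Structural than in Tip ECs in 6 of 6 replicates, at 6631 to 8151 against 7937 to 9044 CPM, and its part in the Smad1 difference was not tested. Outside ECs, Smad1 averaged at most 79.4 CPM.

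Deep cells are more likely to hold a UMI of any gene, so shares of cells were also taken with 500 UMIs drawn at random from each cell. This kept 4861 cells, among them 1091 of 1428 Tip, 1647 of 3335 Structural and 807 of 1162 Proliferative ECs, and left out 4083. Rods, photoreceptors with a median of 361 UMIs against 1007 in Tip and 491 in Structural ECs, were set beside the ECs. Whether the UMIs of the members in rods were free RNA or came from the rods themselves was not tested. A Smad1 UMI was found in 30.9% of Tip, 13.3% of Structural and 19.6% of Proliferative ECs as deposited and in 1.59% of rods. After drawing down, the shares were 14.0%, 7.89% and 9.54% in the 3 EC subtypes and 1.66% in rods. The order of Tip above both other subtypes was the same at equal depth. For the receptors, the shares of all ECs and of rods after drawing down were 18.1% and 2.38% for Eng, 11.99% and 4.99% for Bmpr2, 6.49% and 0.713% for Tgfbr2 and 5.47% and 0.713% for Acvrl1. Before it they were 30.7% and 1.99% for Eng, 22.65% and 4.05% for Bmpr2, 14.6% and 0.862% for Tgfbr2 and 12.9% and 0.796% for Acvrl1. Every receptor was thus found in more ECs than rods at both depths.

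The inhibitory Smads had the opposite order within ECs and much lower counts. Smad6 (chromosome 9, 63953076 to 64022059) gave 78 UMIs of 3972992 in Structural ECs and 6 of 2239114 in Tip ECs. Structural ECs held 34.9, 8.10 and 35.3 CPM in eNOS+/+ and 17.5, 7.15 and 22.4 in eNOS-/-, and Tip ECs 0, 5.34 and 4.21 against 1.99, 1.40 and 7.01, so that Structural ECs were higher in 6 of 6 replicates (9.08% of genes). Rods gave 0 UMIs of 656387. The mean of 23.2 ± 31.8 CPM (SD, n = 5) in Optc+ cells came from 1 UMI in eNOS+/+ replicate 1 and 5 UMIs in eNOS+/+ replicate 3, the other 3 sums being at 0. A Smad6 UMI was present in 1.52% of ECs as deposited and 0.649% after drawing down, which leaves its pattern among single cells out of reach of this depth.

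Smad7, which inhibits both branches, was found in ECs, mural cells and Immune cells. It averaged 90.3 CPM ± 39.9 (SD, n = 6) in Structural, 70.3 ± 29.9 (SD, n = 6) in Proliferative and 50.9 ± 12.8 (SD, n = 6) in Tip ECs, 82.3 ± 50.9 (SD, n = 5) in mural cells and 63.3 ± 46.7 (SD, n = 5) in Immune cells. Structural ECs ran 107, 44.5 and 98.3 CPM in eNOS+/+ and 87.3, 51.0 and 153 in eNOS-/-, against 64.5, 42.7 and 65.2 and then 55.8, 41.9 and 35.1 in Tip ECs. Structural ECs were above Tip ECs of the same replicate in 6 of 6, by a margin from 1.04 to 4.37 times, and the highest ratio was in eNOS-/- replicate 3, whose Structural ECs carried the mural genes. All ECs were higher than mural cells in 1 of 5 replicates only. Optc+ cells averaged 21.1 CPM, and Neurons, Neuroglia and Rods were at 0.679 to 7.54 CPM. With 500 UMIs drawn per cell, a Smad7 UMI was found in 6.14% of 114 Immune cells (95% Wilson interval 3.01 to 12.1%), 3.02% of all ECs and 0 of 421 rods, which allows a share of up to 0.713%.

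**Figure D2:**
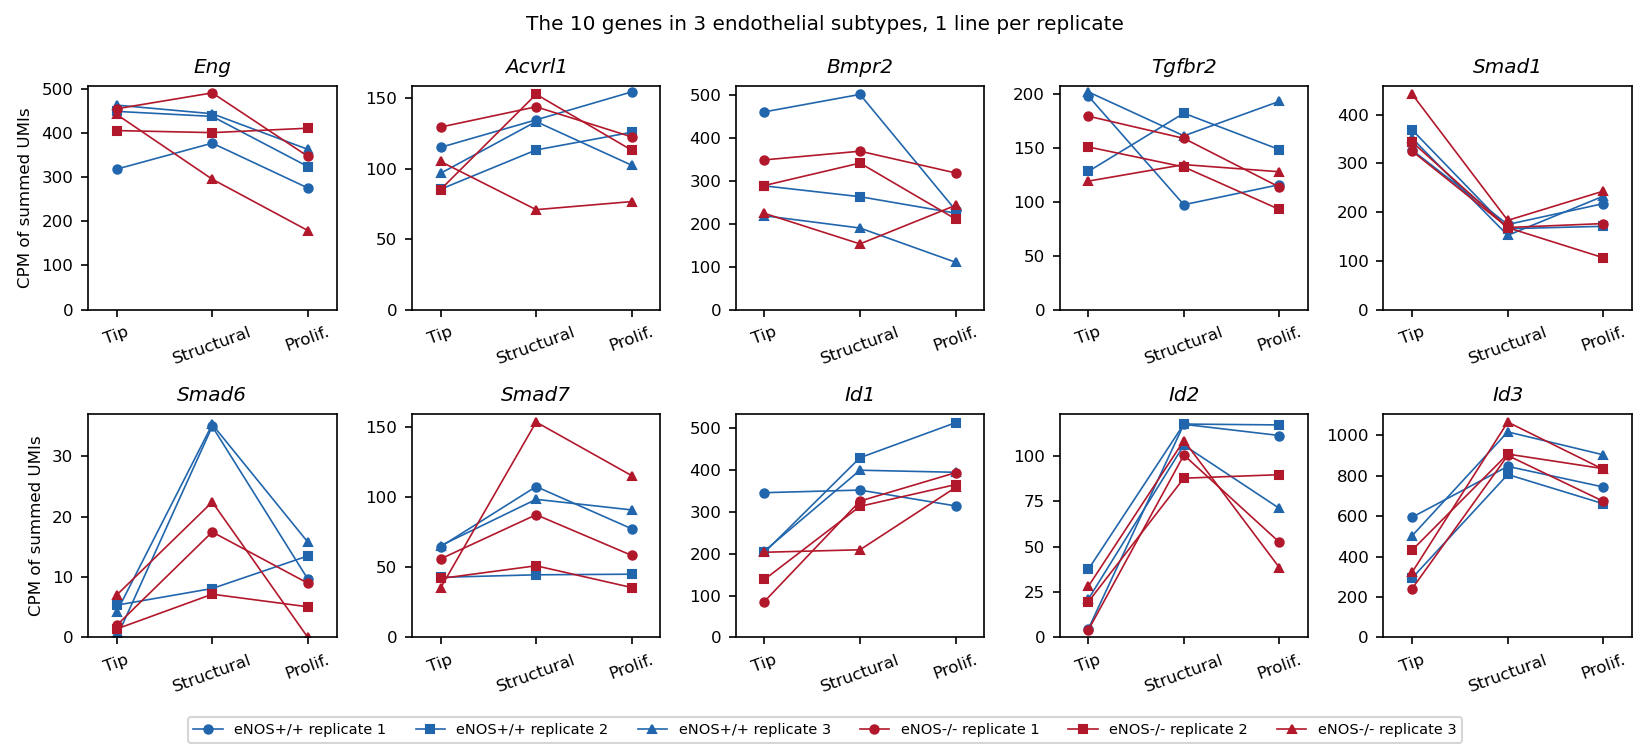
CPM of each member (10 panels, each with its own linear axis from 0) in Tip, Structural and Proliferative ECs, with a line for each of the 6 replicates, blue for eNOS+/+ and red for eNOS-/-, and circles, squares and triangles for replicates 1, 2 and 3. All 6 lines fall from Tip to Structural ECs for Smad1 and rise for Smad6, Smad7, Id1, Id2 and Id3, while the lines of the 4 receptors do not share a direction; blue and red lines cross in most panels.

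The Id genes had their lowest means among the EC subtypes in Tip ECs. BMP signalling itself was not measured. Id3 (chromosome 4, 136143497 to 136145755) held 594, 294 and 503 CPM in Tip ECs of eNOS+/+ and 241, 432 and 323 in those of eNOS-/-. In Structural ECs it held 846, 806 and 1017 CPM against 900.0, 907 and 1065, and in Proliferative ECs 744, 661 and 903 against 673, 835 and 831. Every Structural and Proliferative value lay above every Tip value. The ratio of Structural to Tip ECs was 2.32 in the means and 1.42 to 3.73 by replicate, and that of Proliferative to Tip ECs was 1.95, with a range from 1.25 to 2.79. Both held in 6 of 6 replicates, as they did for 9.08% and 10.6% of genes. Structural were above Proliferative ECs in 6 of 6 too, by 1.19 times, an order shared by 6.54% of genes.

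Id2 (chromosome 12, 25093799 to 25097140) was nearly missing from Tip ECs. Its values there were 4.61, 37.4 and 21.0 CPM in eNOS+/+ and 3.99, 19.6 and 28.1 in eNOS-/-, whereas Structural ECs held 117, 117 and 106 against 100.4, 87.6 and 108. The ratio of the means was 5.56, with 3.14 as the lowest ratio in a replicate, and Structural ECs were higher in 6 of 6. Proliferative ECs, at 38.4 to 117 CPM, were also above Tip ECs in 6 of 6 replicates, by 4.18 times in the means.

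Id1 (chromosome 2, 152736251 to 152737410) had the same direction with a smaller gap. Tip ECs held 346, 203 and 206 CPM in eNOS+/+ and 85.7, 138 and 203 in eNOS-/-, and Structural ECs 352, 429 and 399 against 326, 313 and 209. Structural ECs were higher in 6 of 6 replicates, but in eNOS+/+ replicate 1 and eNOS-/- replicate 3 the 2 subtypes were almost equal, the lowest ratio being 1.02. Proliferative ECs, at 314 to 513 CPM, were higher than Tip ECs in 5 of 6.

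Lists of other genes moved with these differences between EC subtypes. The summed level of 12 immediate early and stress genes, which respond to cell handling as well as to signals, was higher in Structural than in Tip ECs in 6 of 6 replicates (2212 to 5568 against 1544 to 3535 CPM) and higher in Proliferative than in Tip ECs in only 2 of 6. The neuroglia list of 7 genes, at 447 to 1288 CPM in Structural, 281 to 539.8 in Proliferative and 203 to 533 in Tip ECs, was higher in Structural than in Tip ECs in 6 of 6 replicates and higher in Proliferative than in Tip ECs in 5 of 6. The mural list (32.3 to 3868 against 13.8 to 238 CPM), the red blood cell list (34.9 to 22522 against 13.8 to 399.7 CPM) and the B cell list (47.9 to 312 against 0 to 7.01 CPM) were also higher in Structural than in Tip ECs in 6 of 6, and each was higher in Proliferative than in Tip ECs in 2 of 6. Over the 18 EC sums, which share libraries, Pearson's r of log2(CPM + 10) with the immediate early and stress list was 0.027 for Id1, 0.352 for Id2 and 0.152 for Id3. The part of these lists in the differences of Smad6, Smad7 and the Ids between EC subtypes was not tested.

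At equal depth the share of cells with an Id UMI kept the order. For Id3, drawing down gave 14.1% of Tip ECs (95% Wilson interval 12.2 to 16.3%, counting error only), 33.2% of Structural (30.9 to 35.5%) and 29.4% of Proliferative ECs (26.3 to 32.6%), against 2.85% of rods. As deposited, the shares were 31.2%, 37.0%, 47.8% and 2.39%, so the gap between Tip and Structural ECs was wider at equal depth. Id1 gave 6.97%, 14.1% and 15.2% of the subtypes against 0.713% of rods after drawing down, and 14.8%, 19.5%, 31.2% and 0.729% before. For Id2, the 0.458% of drawn-down Tip ECs was below the 0.95% of rods and is not told apart from background. Structural and Proliferative ECs gave 4.07% and 2.85%. Before drawing down, Id2 was in 2.17% of Tip, 8.31% of Structural and 9.38% of Proliferative ECs and in 0.597% of rods.

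Neuroglia held the highest Id levels of all types. Id3 was at 1212, 2298 and 2450.4 CPM in eNOS+/+ and at 2782 and 3151 in eNOS-/- replicates 1 and 2. Id2 was at 2047, 144 and 1016 CPM against 1391 and 1567, and Id1 at 668, 575 and 119.5 against 765 and 600.2. These sums are small: Neuroglia of eNOS+/+ replicate 2 held 10 cells and 6962 UMIs, so that its Id2 value is 1 UMI, and the Id1 value of eNOS+/+ replicate 3 is 2 UMIs. Neuroglia exceeded Structural ECs in 5 of 5 replicates for Id2 (11.7 times in the means) and Id3 (2.66 times), and in 4 of 5 for Id1 (1.5 times). After drawing down, Id3 was found in 48.0% of 98 neuroglial cells (38.3 to 57.7%) and Id2 in 36.7%. The EC list in these sums was at 1651 to 2155 CPM, and its part in the neuroglial Id levels was not tested.

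The immediate early and stress list was also highest in Neuroglia, at 16376 to 24275 CPM with a median of 19999, followed by Optc+ cells at 7424 to 9533 CPM. Over 42 sums of a cell type and replicate with at least 20000 UMIs, r with this list was 0.735 for Id3, 0.548 for Id2 and 0.517 for Id1, and -0.198 to 0.207 for the other 7 members. The sums share libraries and each type is represented up to 6 times, so r describes these sums. The part of the list in the neuroglial Id levels was not tested.

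Outside Neuroglia, the Ids parted from each other. Mural cells held more Id3 than Structural ECs in 4 of 5 replicates, with 496 and 1215 CPM in eNOS+/+ and 1318, 1227 and 1296 in eNOS-/-, the 496 CPM of eNOS+/+ replicate 2 lying below every Structural value, but 83.3 ± 65.1 CPM of Id1 (SD, n = 5) and only 2 UMIs of Id2 among 314164. All ECs were higher than mural cells in 5 of 5 replicates for Id1 and Id2, and in 1 of 5 for Id3. Immune cells held Id2 that mural cells lacked, at 199.9 ± 182 CPM (SD, n = 5) with 0 in eNOS+/+ replicate 1, beside 93.4 of Id3 and 7.01 of Id1. Optc+ cells held 653, 807 and 612 CPM of Id3 in eNOS+/+ and 839 and 1911 in eNOS-/-. In Neurons, Id1 averaged 16.5 and Id3 67.4 CPM, and the Id2 mean of 76.5 CPM came from a value of 386 in eNOS+/+ replicate 2, the others being 0 to 41.4. Cones had 1 sum of at least 10 cells, with 31583 UMIs, in which Bmpr2 had 4 UMIs, Id2 had 2, Eng, Acvrl1 and Smad1 had 1 each and the other 5 members had 0.

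**Figure D3:**
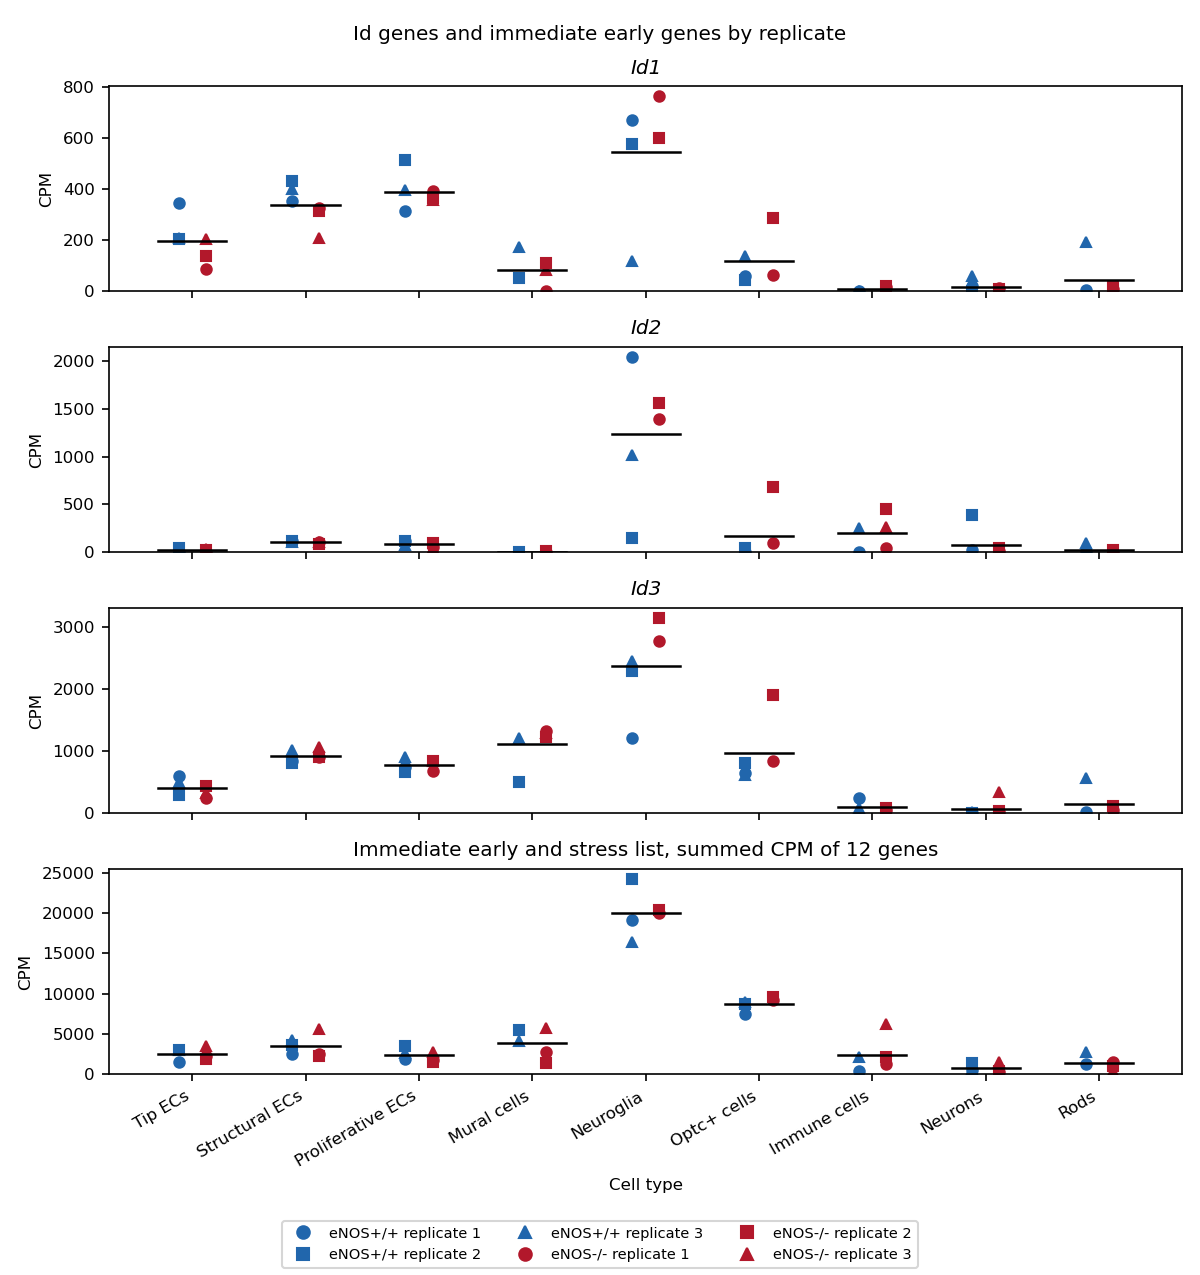
CPM of Id1, Id2 and Id3 and the summed CPM of the 12 immediate early and stress genes (4 panels, linear axes from 0) in 9 cell types, with a point for each replicate, blue for eNOS+/+ and red for eNOS-/-, and a black line at the mean. Neuroglia are highest in all 4 panels, with Id means of 546, 1233 and 2379 CPM; mural cells reach Id3 levels of ECs with Id2 near 0.

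Genes that respond to BMPs and TGF-beta can carry short Smad motifs near their starts, and the start regions of the members were read for 3 of them: GGCGCC (bound by Smad1), CAGAC and GTCTAGAC (bound by Smad3 and Smad4). RefSeq windows of 300 bases on GRCm38.p6, 250 before to 50 after the start, were found for 7 of the 10 members, and both strands were searched. GTCTAGAC, which contains no CAGAC, occurred once, in Smad6, and in 0.21% of 32851 windows of the same length. GGCGCC occurred in Bmpr2 and in Id2, 1 match each, and in 11.87% of windows. CAGAC occurred in Eng (2 matches), Id3 (2) and Tgfbr2 (1) and in 49.59% of windows, and Smad1 held none of the 3. CAGAC matches are not shown, because 49.59% of windows hold one. A link of these motifs to the levels in EC subtypes was not tested. The 30 bases around the rarer matches are shown on the strand of the gene, with the motif in capitals.
Smad6, chr9:64022045-64022074, minus strand: gccgccaaagtGTCTAGACtggcatatgat
Id2, chr12:25096306-25096335, minus strand: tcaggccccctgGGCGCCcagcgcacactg
Bmpr2, chr1:59764162-59764191, plus strand: ctccggcggccgGGCGCCgctgcctgcccc
The Smad6 match starts 4 bases before the RefSeq start, with 15 of the 30 bases in a GENCODE exon. The Id2 match starts 231 bases before its RefSeq start, outside any exon but within the GENCODE gene bounds given above. The Bmpr2 match starts 105 bases before its RefSeq start, with all 30 bases in an exon of the GENCODE annotation. These are matches of letters and not shown to be sites.

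The genes whose levels ran most like each member over the same 42 sums were found among genes tested in all ECs, by Pearson's r of log2(CPM + 10). For Eng they were Fn1 (0.914), Sparcl1 (0.908) and Cdh5 (0.906), and for Acvrl1 they were Scarf1 (0.893), Tmem204 (0.878) and Itga6 (0.877). Tgfbr2 was closest to Ecscr (0.881), Prcp (0.875) and Rasgrp3 (0.857), and Smad1 to Kif5b (0.887), Htra3 (0.864) and Myct1 (0.850). Eng, Acvrl1, Tgfbr2 and Smad1 thus had several EC genes, such as Cdh5 (VE-cadherin) and Ecscr, beside them. Bmpr2 was closest to Sbds (0.741), Crk (0.710) and Rab1a (0.699), Smad7 to Rpl32 (0.789), Sem1 (0.786) and Ifnar2 (0.782), and Smad6 to Phgdh (0.583), Slc25a39 (0.578) and Zdhhc4 (0.563), all with lower r. The Ids had other neighbours. Id1 was closest to Itm2a (0.840), S100a16 (0.824) and Klf4 (0.823), of which Klf4 is in the immediate early and stress list, Id2 to Rgs2 (0.839), Glul (0.760) and Irf2bp2 (0.726), of which Glul is glutamine synthetase and marks retinal glia, and Id3 to Zfp36l1 (0.891), Vim (0.884) and Adamts1 (0.847). Within the 18 EC sums, r was -0.793 between Smad1 and Id3 and -0.783 between Smad1 and Id2, and 0.745 between Id2 and Id3, which restates the subtype order above.

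Between genotypes, no member passed the test in any cell type. With edgeR's quasi-likelihood model on the replicate sums, and p-values adjusted by Benjamini-Hochberg over all genes of a fit, 0 of 8 members tested were called in Tip ECs, 0 of 10 in Structural, 0 of 9 in Proliferative and 0 of 10 in all ECs, against 0.0181%, 0.0264%, 0.0217% and 0.0211% of all genes tested. In mural cells 3 members had enough UMIs to be tested, in Neuroglia 3, in Rods 3, in Optc+ cells 2 and in Immune cells and Neurons none, and 0 were called. The share of all genes called was 0% in mural cells and Neuroglia, 0.0320% in Rods and 2.06% in Optc+ cells. At an unadjusted p under 0.05 there were 3 values of 48, all of Id genes: 1 of 8 in Tip ECs, beside 4.95% of all genes tested, 1 of 10 in all ECs, beside 5.78%, and 1 of 2 in Optc+ cells, beside 11.1%. There were none in Structural ECs (5.52% of all genes), Proliferative ECs (6.38%), mural cells (5.78%), Neuroglia (5.93%) and Rods (1.19%). DESeq2 called 0 members in every fit. Replicate values of the genotypes did not overlap for 0 of 8 members in Tip, 1 of 10 in Structural, 0 of 9 in Proliferative and 1 of 10 in all ECs, where 10.3%, 10.5%, 10.8% and 10.4% of all genes did not, and for 0 of 3 in Rods, where 17.2% did not. Replicates were separate pools of retinas, so p-values measure the spread between pools. In simulated data, the test recovered 36 of 200 genes changed 2-fold in Tip, 15 in Structural, 69 in Proliferative and 55 in all ECs, and 170 to 178 of 200 changed 4-fold, so changes of about 2-fold would mostly not be called with these sums.

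Id1 was the only member with an unadjusted p under 0.05 in an EC fit, although Smad6 had larger estimates in Structural and all ECs. Over all ECs it was 341, 393 and 338 CPM in eNOS+/+ and 293, 274 and 231 in eNOS-/-, and the groups did not overlap. On the log2 scale the difference was -0.42 (standard error 0.18, adjusted p = 0.858 by edgeR with Benjamini-Hochberg adjustment). In Tip ECs it was -0.89 (standard error 0.31, adjusted p = 0.673 by edgeR) with values that overlapped, 203 CPM being reached in eNOS+/+ replicate 2 and in eNOS-/- replicate 3. In Structural ECs it was -0.47 (standard error 0.23, adjusted p = 0.895 by edgeR) without overlap, and in Proliferative ECs -0.11 (standard error 0.24, adjusted p = 0.980 by edgeR). The unadjusted p was under 0.05 in Tip ECs and in all ECs together. Without 1 replicate at a time, Id1 stayed between -1.13 and -0.60 in Tip ECs and between -0.47 and -0.35 in all ECs. The lowest adjusted p over all its alternatives in Tip ECs, edgeR's with Benjamini-Hochberg adjustment, was 0.101, without eNOS-/- replicate 3. The immediate early and stress list overlapped between genotypes in all ECs, at 2069, 3359 and 3553 CPM against 2201, 1938 and 4523.

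Whether the genotype difference varied among the EC subtypes was tested as an interaction with the replicate as a block. No gene of 7019 was called by edgeR after Benjamini-Hochberg adjustment (0%), and 241 genes (3.43%) had an unadjusted p under 0.05. Id1 and Id3 were among these. For Id1 the Tip difference was lower than the Structural difference by 0.50 on the log2 scale (adjusted p = 0.9996 by edgeR), and for Id3 it was lower by 0.52 (adjusted p = 0.9996 by edgeR). Id3 alone was -0.48 in Tip ECs (standard error 0.28) and 0.08 in Structural ECs (standard error 0.22). Neither gene can be said to differ between subtypes in its response.

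Outside ECs, Id3 was higher in the eNOS-/- replicates of 3 cell types and had a negative estimate in Rods, without passing the test in any. In Optc+ cells, the values above differed by 1.07 on the log2 scale (standard error 0.44, adjusted p = 0.287 by edgeR with Benjamini-Hochberg adjustment), and the groups did not overlap, which held for 26.7% of genes there. Without eNOS-/- replicate 2, whose value was 1911 CPM, it was 0.39, and the lone eNOS-/- sum is then assumed to vary like the others. In mural cells Id3 gave 0.65 (standard error 0.37, adjusted p = 0.819 by edgeR) without overlap, against 26.0% of genes, and without eNOS+/+ replicate 2, which leaves a lone eNOS+/+ sum, it was 0.18. The mural marker list differed in the same direction, at 16379 and 14922 CPM in eNOS+/+ and 26864, 27648 and 26667 in eNOS-/-, and its part in this difference was not tested. In Neuroglia Id3 was 0.77 (standard error 0.45, adjusted p = 0.842 by edgeR) without overlap, against 22.5% of genes. In Rods it was -1.05 (standard error 0.87, adjusted p = 0.9999 by edgeR), with values that overlapped. Id3 was not tested in Immune cells, with means of 163 CPM in eNOS+/+ and 46.7 in eNOS-/-. Nor was it tested in Neurons, with means of 6.59 and 128 CPM.

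Id2 in Optc+ cells was too low for the filter on counts, with 0, 42.5 and 34.0 CPM in eNOS+/+ and 93.2 and 678 in eNOS-/-, where 33 of its 41 UMIs came from eNOS-/- replicate 2. It was called only in alternative fits, with no filter on low counts (log2 fold change 3.56, adjusted p = 0.0105 by edgeR with Benjamini-Hochberg adjustment) and without eNOS-/- replicate 1, where the lone eNOS-/- sum is assumed to vary like the others (4.38, adjusted p = 6.43e-05 by edgeR). In these sums the EC list was at 416 to 521 CPM in eNOS+/+ and at 1926 and 822 in eNOS-/-, and the neuroglia list at 10156 to 12887 against 8138 and 9040 CPM. The part of either in the Id2 and Id3 values of Optc+ cells was not tested.

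The receptors and most Smads had small estimates in ECs. Eng had log2 fold changes of -0.09 to 0.08 in the 4 EC fits, and Acvrl1 of -0.17 to 0.10. Bmpr2 was -0.12 to 0.49, with its largest value in Proliferative ECs (standard error 0.28, adjusted p = 0.844 by edgeR), and Tgfbr2 was lower in eNOS-/- in all 4 fits, at -0.51 to -0.05, without passing in any. Smad1 was -0.37 in Proliferative ECs and within 0.07 of 0 in the others. Smad6 had the largest estimate, -1.05 in Structural ECs (standard error 0.53, adjusted p = 0.895 by edgeR), on values that overlapped and few UMIs. Over the members tested, the median log2 fold change was -0.16 in Tip, -0.07 in Structural, -0.17 in Proliferative and -0.06 in all ECs, beside medians over all genes tested of 0.0046, 0.010, 0.015 and 0.0078.

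**Figure D4:**
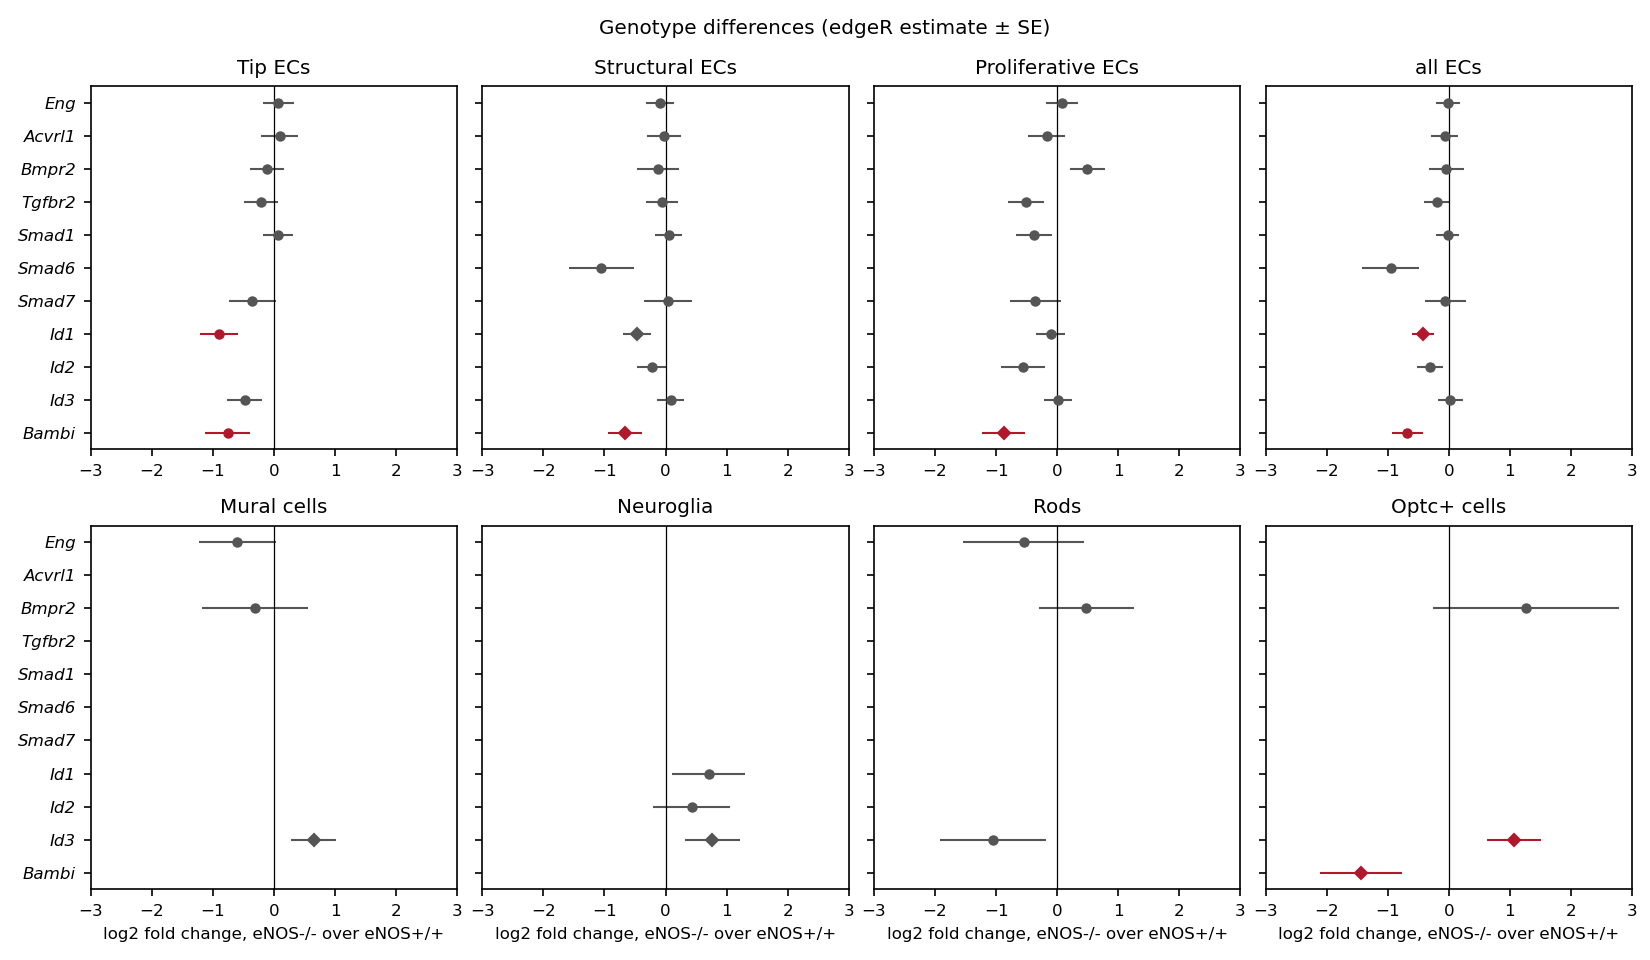
Log2 fold change of eNOS-/- over eNOS+/+ with its standard error from edgeR for the 10 members and Bambi in 8 fits; red marks an unadjusted p under 0.05 and a diamond marks replicate values that do not overlap between genotypes. Most points lie within 1 standard error of 0, Id1 lies below 0 in the 4 EC fits, and Bambi lies below 0 in the fits in which it was tested.

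The other genes of the pathway were taken from a list of 51 ligands, receptors, Smads, regulators and targets. Of these, 26 had enough UMIs to be tested in all ECs, and Bmp10, Gdf2, Nog, Chrd and Bmper were not found in the counts. The best covered in each role, by mean CPM in all ECs, were the ligands Tgfb2 (93.0) and Tgfb1 (61.6), the type I receptors Acvr1 (26.3) and Tgfbr1 (22.3), Smad5 (137) and the common Smad4 (54.2), the extracellular or membrane regulators Fstl1 (354) and Bambi (114), the feedback regulators Pmepa1 (355) and Skil (247), and the target Ccn2 (79.4). In all ECs, edgeR called 0 of 3 ligands, 0 of 4 receptors, 0 of 4 Smads, 0 of 5 extracellular regulators, 0 of 6 intracellular regulators and 0 of 4 targets. Of the 26 genes, 1 had an unadjusted p under 0.05, a share near the 5.78% of all genes tested, and 15 had a log2 fold change below 0 and 11 above 0. Their median log2 fold change was -0.07, beside 0.0078 over all genes tested.

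The gene with the unadjusted p under 0.05 was Bambi, a pseudoreceptor that resembles a type I receptor without its kinase and dampens TGF-beta signalling. In Structural ECs it held 150, 170 and 128 CPM in eNOS+/+ and 98.6, 67.1 and 127 in eNOS-/-, and in Proliferative ECs 111, 121 and 86.8 against 43.4, 72.7 and 51.2, without overlap in either, as held for 10.5% and 10.8% of all genes tested there. Its log2 fold change was -0.67 (standard error 0.28) in Structural, -0.88 (standard error 0.35) in Proliferative, -0.76 (standard error 0.37) in Tip and -0.68 (standard error 0.25) in all ECs, and 0 of these passed, the adjusted p in all ECs being 0.824 by edgeR with Benjamini-Hochberg adjustment. In Optc+ cells it was -1.44 (standard error 0.68, adjusted p = 0.382 by edgeR), also without overlap, as for 26.7% of genes. Values overlapped in Tip and in all ECs. It stayed below 0 in every alternative fit. Leaving out a replicate, all ECs ran from -0.96 without eNOS-/- replicate 3 (adjusted p = 0.0503 by edgeR) to -0.49 without eNOS-/- replicate 2 (adjusted p = 0.9996 by edgeR), and Tip ECs from -1.17 without eNOS-/- replicate 3 to -0.39 without eNOS+/+ replicate 3. In Structural ECs, Htra1, a secreted protease, was -0.65 on the log2 scale, with an unadjusted p under 0.05 from edgeR, and was not called.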

How the data were processed

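The authors made Drop-seq libraries, aligned reads to GRCm38 with kb-python and used bcl2fastq and Seurat 3 per the labels. They removed cells with few genes or many mitochondrial counts, named cell types after integration of the replicates and defined EC subtypes without it. The deposited table holds raw UMI counts, without normalization, and a second deposited table gives each cell's replicate, genotype and type. Of its columns 9 were not used, and the authors' percent of mitochondrial UMIs served only to check the filter. Because 100% of cells are marked as singlets, no doublet caller was run. Recomputed totals differed from the deposited ones in 0 cells. The annotation used for counting is not given in the sources used here, and gene positions come from GENCODE on GRCm38.

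The members and lists were chosen with earlier results of these data known. UMIs were summed per type and replicate over at least 10 cells. This left out eNOS+/+ replicate 1 for mural cells, eNOS+/+ replicate 2 for Immune cells and Rods, and eNOS-/- replicate 3 for Neuroglia and Optc+ cells, and Cones were not fitted. The genes Bmp10, Gdf2, Nog, Chrd and Bmper were not found in the deposited counts under these names and could not be analysed. Genotypes were compared with edgeR 4.0.16 (filterByExpr, TMM, quasi-likelihood test, Benjamini-Hochberg adjustment over all genes of a fit, threshold 0.05), in R 4.3.3. DESeq2 1.42.0 served as an alternative. Standard errors were computed as the log2 fold change over the root of F. Levels, shares of cells and figures used pandas 2.3.3, scipy 1.17.1, matplotlib 3.10.9 and numpy 2.4.6 under Python 3.11.15. The limit for a count of 0 is 3 counts, and intervals cover counting error only.

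The genes named were the 10 members, Nos3, the other pathway genes past the threshold or with an unadjusted p under 0.05 in an EC fit, the 2 of highest mean in each role, and the 3 genes most like each member. A pathway gene that the rule names is left out of the text. Marker genes outside this rule were named after their values were seen. The alternatives were RLE scaling, DESeq2, no filter, each replicate left out, the replicate block, cells with at least 500 UMIs, mitochondrial genes removed, and the mean over cells of their CPM. Merging barcodes 1 base apart and leaving out the rods of eNOS+/+ replicate 3 were chosen after seeing the data. The fits were tested on simulated data, in which 0, 0, 0 and 1 genes were called in Tip, Structural, Proliferative and all ECs when no change was made. EC sums of replicates of the same genotype differed by 3.97 to 7.37 in chi-square per gene, so none was a copy of another. The promoter windows are RefSeq's.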

Additional observations from a re-analysis of the deposited data

How the results depend on the processing

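No member was called in an EC fit under any alternative run, and of 505 alternative log2 fold changes of 48 member values, 48 had another sign, 42 of them on leaving out a replicate. The 6 others were Acvrl1 in Structural ECs (0.0041), Eng in all ECs (0.0061) and Bmpr2 in mural cells (0.022) with no filter, Smad7 in all ECs (0.019) under the replicate block, and Smad1 (0.019) and Smad7 (0.027) in all ECs with cells of at least 500 UMIs. Same-numbered replicates of the genotypes correlated at 0.132, -0.07 and 0.114 and were not taken as pairs; under the block Structural ECs gave 11 called genes and Proliferative ECs 3.

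Leaving out a replicate, log2 fold changes that changed sign ran as follows. In Tip ECs, Acvrl1 ran from -0.094 to 0.28, Bmpr2 from -0.33 to 0.25, Smad1 from -0.056 to 0.16 and Eng from -0.066 to 0.21. In Structural ECs, Eng ran from -0.26 to 0.049, Acvrl1 from -0.20 to 0.17, Bmpr2 from -0.40 to 0.38, Smad7 from -0.38 to 0.39, Id3 from -0.02 to 0.21 and Tgfbr2 from -0.28 to 0.087. In Proliferative ECs, Eng ran from -0.16 to 0.24, Smad7 from -0.62 to 0.043, Id3 from -0.10 to 0.16 and Id1 from -0.26 to 0.064. In all ECs, Smad1 ran from -0.16 to 0.065, Smad7 from -0.38 to 0.26, Eng from -0.10 to 0.091, Acvrl1 from -0.18 to 0.078, Bmpr2 from -0.28 to 0.36 and Id3 from -0.10 to 0.15. Eng ran from -1.11 to 0.12 in mural cells and Id2 from -0.041 to 1.23 in Neuroglia. In Rods, Eng ran from -2.38 to 6.33 and Id3 from -2.42 to 2.43, with the highest values without eNOS+/+ replicate 3.

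Counts of all genes called were 1 in Tip ECs (2 with DESeq2, 8 with no filter, 2 with cells of at least 500 UMIs, 0 to 25 leaving out a replicate), 2 in Structural ECs (74 with no filter, 0 with cells of at least 500 UMIs, 0 to 28), 1 in Proliferative ECs (10 with no filter, 0 to 73), 2 in all ECs (84 with no filter, 1 with cells of at least 500 UMIs, 0 to 78), 1 in Rods (0 with DESeq2, 0 to 2) and 23 in Optc+ cells (14 with DESeq2, 9 to 35). They were 0 in mural cells (2 with no filter, 0 to 2), Immune cells (8, 0 to 2), Neurons (1, 0 to 3), Neuroglia (3) and the interaction (4). Members called in Optc+ cells were 0, 1 with no filter and 0 to 1 leaving out a replicate, in each case Id2. The causes were not tested. The number of members highest in an EC subtype was 4 to 7 over all alternatives, against 6. Of the levels, 3 of 450 moved by more than their SD under other settings and 0 of 540 on leaving out a replicate. Shares of cells depend on depth, and 91 were marked as moved and 89 as the same when cells were drawn down or barcodes merged. Merging barcodes took ECs from 5925 to 3700 cells. The Smad1 share was then 40.4% of Tip, 17.2% of Structural and 26.3% of Proliferative ECs, against 30.9%, 13.3% and 19.6% as deposited. Members at a few UMIs per sum, Smad6 above all, are limited by depth.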
